A study of Homo sapiens with 6 samples.

Results

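Chromatin accessibility was described at the genes of 5 kinases of the phosphatidylinositol 3-kinase-related kinase (PIKK) family, *MTOR*, *ATM*, *ATR*, *PRKDC* and *SMG1*, and of the 3 subunits of their TTT cochaperone, *TELO2*, *TTI1* and *TTI2*. They were taken by name, as the kinases assembled with RUVBL1 and RUVBL2 and the cochaperone that brings them there, and are 8 of the 20033 protein-coding genes of the annotation. Each gene was followed at its promoter, taken as 1000 bp to either side of any transcription start site (TSS) of its protein-coding transcripts, and over a window of the gene body with 20 kb on each side. Peaks of the 6 libraries that overlapped by at least 1 bp were merged, which gave 89196 regions, of which 39 lay in the 8 windows.

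PIKKs are very large protein kinases. MTOR couples nutrients and growth factors to protein synthesis and growth, ATM, ATR and DNA-PKcs (the product of *PRKDC*) signal DNA damage and replication stress, and SMG1 phosphorylates UPF1 in nonsense-mediated mRNA decay. Newly made PIKKs are unstable until they are folded and assembled. TTT, a complex of TELO2, TTI1 and TTI2, holds them and hands them to R2TP, which contains the ATPases RUVBL1 and RUVBL2 and works with the chaperone HSP90. RUVBL1 and RUVBL2 are also subunits of chromatin remodeling complexes. CB-6644 is a small molecule that blocks RUVBL1 and RUVBL2 as ATPases, so the question here was whether the genes of its kinase clients and their cochaperone changed in accessibility when it was given.

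The cells were MM.1S, one established human multiple myeloma line, and every library came from live cells isolated by flow sorting. Cells of 3 libraries received CB-6644 at 120 nM over 72 h, and cells of the other 3 received DMSO, the vehicle. Both groups shared the line, with no genetic change. In Omni-ATAC, a transposase inserts sequencing adapters where DNA is exposed, and peaks mark the sites where fragments pile up. The CB-6644 lists held 58563 to 71781 peaks and the DMSO lists 65569 to 79020. No source says that replicates were separate cultures, so p-values measure only the spread between these libraries. CB-6644 replicate 2 and DMSO replicate 1 stood apart, with shortest peaks of 65 and 91 bp against 131 to 152 bp in the other 4. Results at the 8 genes that rest on them were therefore also computed with those 4 libraries alone. Promoters of the plasma cell genes *SDC1*, *TNFRSF17*, *PRDM1*, *IRF4* and *XBP1* had a peak in all 6 libraries. Of 8 genes of other blood lineages, *MS4A1*, *CD3D*, *CD3E*, *CD2*, *LYZ* and *CSF1R* had a promoter peak in 0 libraries, and *PAX5* and *CD14* had one in all 6. CB-6644 acts on a protein, so the peak lists hold no direct check of its target.

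RefSeq promoter windows of 300 bases, from 250 bases before to 50 after the start on GRCh38.p14, were used for 6 of the 8 genes, all but *PRKDC* and *TTI2*. A selection of 4 is shown on the gene's own strand, for genes named in the promoter results, although the promoter ranks do not use sequence. *ATM* had the highest-ranked promoter, *MTOR* is among the largest falls listed later, and *TELO2* and *TTI1* belong to the cochaperone. Capitals mark matches to any of 11 short motifs searched on both strands.
*MTOR* (chr1:11262502-11262801, minus strand): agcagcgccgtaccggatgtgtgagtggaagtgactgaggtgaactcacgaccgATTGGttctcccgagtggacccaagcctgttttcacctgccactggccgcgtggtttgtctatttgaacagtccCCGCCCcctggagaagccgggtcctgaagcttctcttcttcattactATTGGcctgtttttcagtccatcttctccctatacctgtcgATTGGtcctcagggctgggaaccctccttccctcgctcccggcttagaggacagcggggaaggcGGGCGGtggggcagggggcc
*ATM* (chr11:108222817-108223116, plus strand): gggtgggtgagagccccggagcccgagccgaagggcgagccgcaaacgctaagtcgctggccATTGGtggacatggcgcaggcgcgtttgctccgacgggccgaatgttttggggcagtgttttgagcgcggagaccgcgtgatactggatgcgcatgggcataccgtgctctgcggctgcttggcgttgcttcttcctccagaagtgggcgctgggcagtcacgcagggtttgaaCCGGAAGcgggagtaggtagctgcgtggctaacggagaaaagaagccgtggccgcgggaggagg
*TELO2* (chr16:1493110-1493409, plus strand): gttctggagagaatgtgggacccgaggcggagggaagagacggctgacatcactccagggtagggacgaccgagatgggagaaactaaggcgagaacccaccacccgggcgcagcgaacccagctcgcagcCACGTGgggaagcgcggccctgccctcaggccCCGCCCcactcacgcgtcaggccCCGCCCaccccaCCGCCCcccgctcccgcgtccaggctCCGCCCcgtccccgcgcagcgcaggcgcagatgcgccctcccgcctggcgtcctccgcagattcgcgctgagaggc
*TTI1* (chr20:38033407-38033706, minus strand): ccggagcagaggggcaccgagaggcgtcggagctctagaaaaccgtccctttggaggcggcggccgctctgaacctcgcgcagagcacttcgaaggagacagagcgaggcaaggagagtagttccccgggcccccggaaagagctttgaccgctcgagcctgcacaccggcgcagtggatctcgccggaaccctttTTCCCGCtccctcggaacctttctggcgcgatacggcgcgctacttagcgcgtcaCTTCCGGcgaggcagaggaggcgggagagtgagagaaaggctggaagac
The *MTOR* window held 3 NFY motifs (CCAAT) and 2 GC boxes (GGGCGG). The *ATM* window held 1 ETS motif (CCGGAAG) and 1 NFY motif. *TELO2* had 4 GC boxes and 1 E-box (CACGTG), and *TTI1* had 1 ETS and 1 E2F motif (TTCCCGC). Of the windows not shown, *ATR* had 2 ETS motifs and 2 GC boxes, and *SMG1* had 6 GC boxes, of which 2 share bases. The ETS motif was thus in 3 of 6 windows, against 14.4% of 15345 promoters, the GC box in 4 against 59.2%, NFY in 2 against 36.6%, the E-box in 1 against 8.89% and E2F in 1 against 8.76%. The motifs of NRF1 (TGCGCATGC), CRE (TGACGTCA), YY1 (AAGATGGC), ATF4-CEBP (TGATGNAA), IRF (GAAANNGAA) and MAF (TGCTGAC) were in 0 of 6, against 2.09%, 2.64%, 3.97%, 2.54%, 7.04% and 3.71% of promoters. These are matches of letters, with no evidence of binding. GC content was 59.3% for *MTOR*, 64.3% for *ATM*, 68.3% for *ATR*, 74.7% for *SMG1*, 72.3% for *TELO2* and 64.7% for *TTI1*, with a median of 63.0% over all promoters. All 300 bases lay inside peaks in every library for *MTOR*, *ATM*, *ATR* and *SMG1*. For *TELO2* and *TTI1* this held in 5 libraries, while peaks of CB-6644 replicate 2 covered 197 and 192 bases.

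The promoters of all 5 kinases and all 3 TTT subunits were accessible with and without the inhibitor. Each of the 8 had a peak in all 6 libraries, which was also true of 63.8% of protein-coding genes. To compare strengths, the peaks of each library were ranked by −log10 p among the 42089 regions that had a peak in all 6 libraries (shared regions, 47.2% of all regions), and the rank is given as a percentile from 0 to 100 within that library. The percentile is a position among regions, not an amount of open chromatin, and the strongest shared region at a gene's promoter stood for the gene. By the mean over libraries, the order was *ATM* (99.0), *MTOR* (94.7), *ATR* (94.6), *PRKDC* (93.4), *SMG1* (86.1), *TTI1* (72.4), *TELO2* (67.2) and *TTI2* (36.1). The 5 kinases ranked above the 3 cochaperone genes by this measure, for *PRKDC* through a region upstream of its TSS near *MCM4*. The region over the *PRKDC* TSS itself, also near *MCM4*, lay below *TTI1* and *TELO2*. The median of the 8 was 89.7, against 80.8 over 12747 genes with a shared promoter region, whose quartiles were 61.6 and 91.7.

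**Figure D1:**
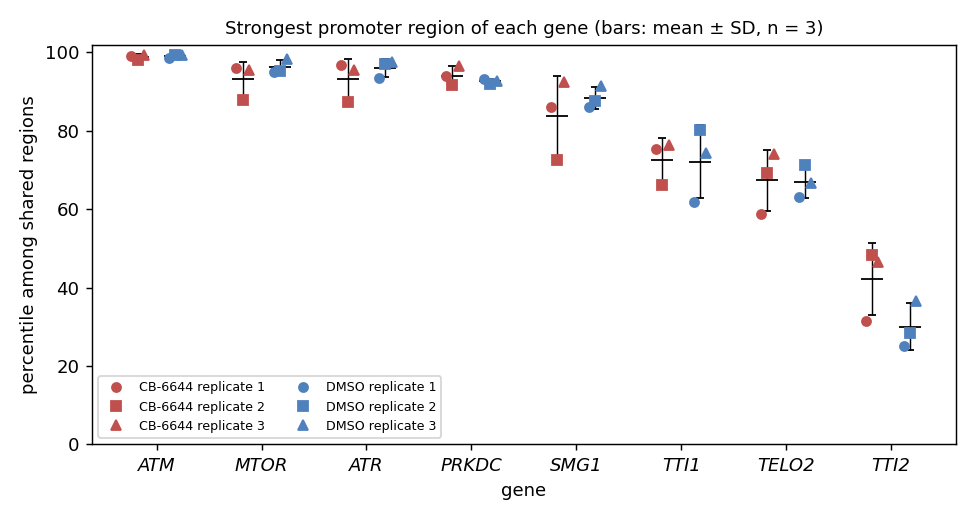
Percentile of the strongest promoter region of each gene among shared regions (vertical axis, 0 to 100), with 1 point per library and bars for the mean ± SD of 3 libraries. CB-6644 (red) and DMSO (blue) points overlap for all 8 genes, and the kinases lie above *TTI1*, *TELO2* and *TTI2* by their means. *PRKDC* is shown by its stronger region, upstream of the TSS, and not by the region over the TSS. Both regions lie near *MCM4*.

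*ATM* (chr11:108223044-108369102, plus strand), which starts the response to DNA double-strand breaks, had promoter percentiles of 99.2, 98.1 and 99.4 in CB-6644 replicates 1 to 3 and 98.5, 99.4 and 99.3 in DMSO replicates 1 to 3. These gave 98.9 ± 0.71 and 99.1 ± 0.47 (SD, n = 3). All 6 values were at the top of the scale and the groups overlapped. The region (chr11:108222380-108223353) also lies at a TSS of *NPAT*, so its signal cannot be assigned to one of the genes.

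*MTOR* (chr1:11106535-11262556, minus strand) had 96.0, 87.9 and 95.4 with CB-6644 and 95.0, 95.4 and 98.4 with DMSO (93.1 ± 4.53 and 96.3 ± 1.88). *ATR* (chr3:142449007-142578733, minus strand), the kinase of replication stress, had 96.8, 87.4 and 95.5 with CB-6644 and 93.5, 97.0 and 97.6 with DMSO (93.2 ± 5.10 and 96.0 ± 2.23). In both genes CB-6644 replicate 2 was the lowest value and the other 5 libraries overlapped. These neighbours in the order differed by less than their spread, and each was the closest of the 8 genes to the other, with a mean absolute difference of 0.893 percentile points over the 6 libraries. Neither region has a TSS of another gene near it.

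*PRKDC* (chr8:47773111-47960178, minus strand), which encodes the catalytic subunit of DNA-PK in DNA end joining, had 94.0, 91.7 and 96.6 with CB-6644 and 93.2, 92.0 and 92.7 with DMSO (94.1 ± 2.45 and 92.6 ± 0.63). These values belong to a region whose summits lay at −744 to −728 bp from the *PRKDC* TSS (chr8:47960645-47961391), near TSSs of *MCM4*, the divergent gene for a replicative helicase subunit. The region over the *PRKDC* TSS itself (chr8:47959932-47960497) ranked lower, at 46.4, 61.2 and 50.1 with CB-6644 and 69.4, 65.7 and 49.4 with DMSO, and its groups overlapped.

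*SMG1* (chr16:18804860-18926408, minus strand) had 86.2, 72.7 and 92.5 with CB-6644 and 86.0, 87.5 and 91.4 with DMSO (83.8 ± 10.11 and 88.3 ± 2.78). CB-6644 replicate 2 was again the lowest, and the other libraries lay together. The region also lies at a TSS of *SMG1-DT*, a divergent transcript. The annotation has 9 *SMG1P* pseudogenes, near-identical copies that can share reads with this gene, so peaks in the copied part of *SMG1* are uncertain.

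Among the cochaperone genes, *TTI1* (chr20:37983007-38033461, minus strand), whose product is the scaffold of the complex, had 75.4, 66.2 and 76.3 with CB-6644 and 61.9, 80.2 and 74.3 with DMSO (72.7 ± 5.58 and 72.1 ± 9.36). *TELO2* (chr16:1493344-1510457, plus strand), whose product contacts the kinases, had 58.8, 69.3 and 74.0 with CB-6644 and 63.0, 71.2 and 66.7 with DMSO (67.3 ± 7.79 and 67.0 ± 4.13). Both genes spanned similar ranges in the 2 groups and overlapped each other. The *TTI1* region also lies at a TSS of *RPRD1B*. *TTI2* (chr8:33473386-33513185, minus strand) was the lowest, at 31.5, 48.3 and 46.5 with CB-6644 and 25.1, 28.4 and 36.6 with DMSO (42.1 ± 9.21 and 30.0 ± 5.90). Its values lay below those of the other genes in every library, and the groups overlapped through CB-6644 replicate 1. A TSS of the small nucleolar RNA gene *SNORD13* lies at the same region. The *TTI2* summit lay at 8, 23 and 8 bp from the TSS with CB-6644 and at −431, −431 and −116 bp with DMSO. The *TTI2* percentiles thus compare peaks of 1 region whose summits lay at different positions. Peaks covered 772, 360 and 836 bp of that region with CB-6644 and 617, 839 and 1128 bp with DMSO. *TELO2* summits, by contrast, stayed at −30 to −28 bp.

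The fold enrichment over local background, the peak caller's own ratio, is not scaled between libraries and is given as a description. For the *ATM* promoter it was 21.4, 34.6 and 22.5 with CB-6644 and 28.5, 22.1 and 19.8 with DMSO, and for *TTI2* 9.25, 17.3 and 10.8 against 11.2, 9.05 and 9.02. CB-6644 replicate 2 and DMSO replicate 1, the libraries with short peaks, gave the highest folds in each group for both genes.

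The gene whose promoter percentile was most like each member's over the 6 libraries was *FRMD5* for *MTOR* (mean absolute difference 0.612 points), *PODNL1* for *ATM* (0.0911), *NUMA1* for *ATR* (0.438) and *TMEM141* for *PRKDC* (0.579). It was *H2AX* for *SMG1* (1.07), *APPBP2* for *TELO2* (2.05), *NBPF20* for *TTI1* (2.17) and *TMEM109* for *TTI2* (3.31). Of about as many genes compared each time, 3340 lay within 5 points of *MTOR*, 2339 of *ATM* and 14 of *TTI2*, so the likeness of the top promoters was common.

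Of the 39 regions in the 8 windows, 27 had a peak in all 6 libraries (69.2%), against 57% of regions in 10780 gene windows of the same range of sizes. A region with a peak in all 3 DMSO libraries and no CB-6644 library was found at 4.5% of all regions, and the reverse at 0.586%. Both counts were 0 of 39 here. Of single windows of that size range, 84% held no such region, which is a share per window and not for 8 windows together. The other 12 regions had a peak in 1 to 5 libraries. By place, the 39 comprised 10 regions at a promoter of the 8 genes, 11 at a promoter of another gene, 11 in introns, 2 at exons and 5 in the flanks. Shared regions were 9 of the 10 and 9 of the 11 at promoters, 6 of the 11 in introns, both at exons and 1 of the 5 in flanks.

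**Figure D2:**
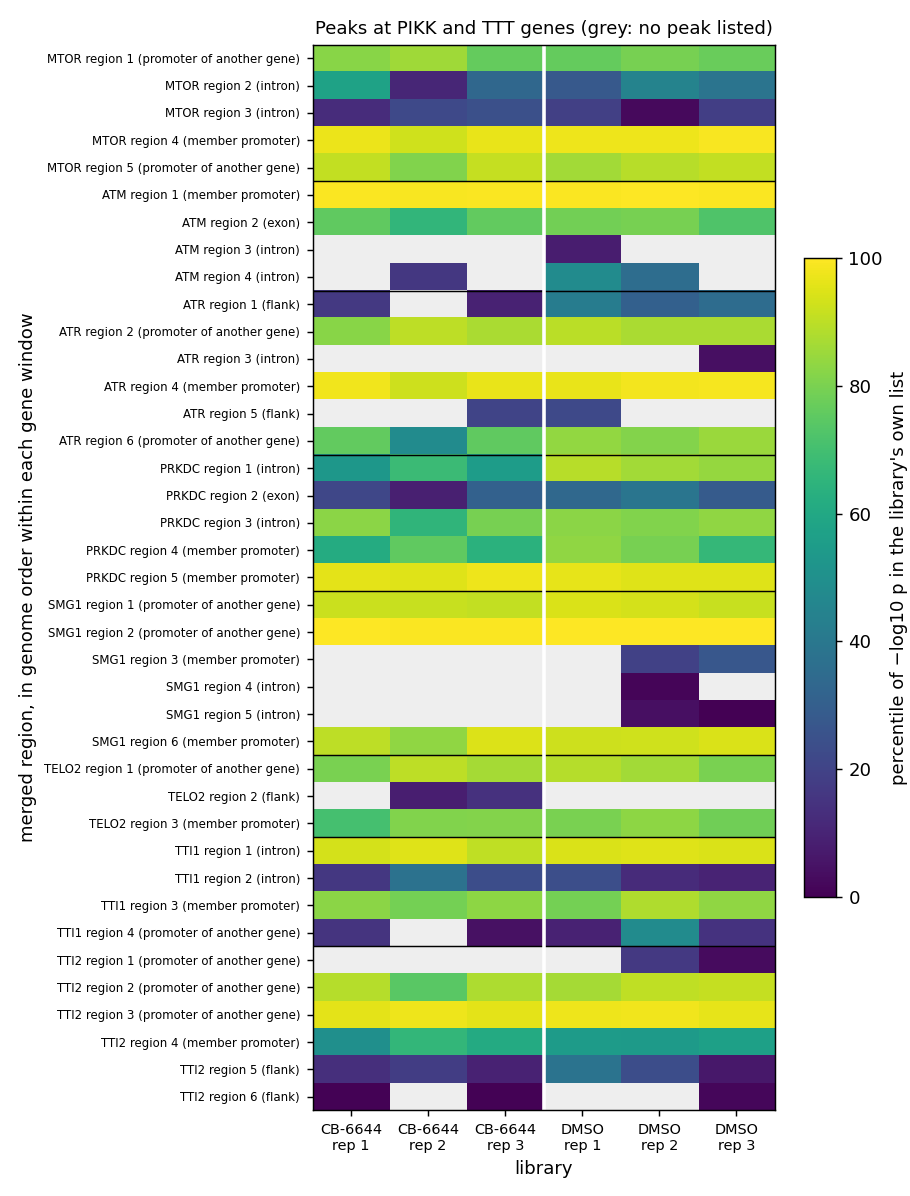
Each row is 1 of the 39 merged regions, grouped by gene, and each column is a library. Color gives the percentile of the peak's −log10 p within that library's own list (0 to 100), and grey means that no peak was listed. Member promoters form unbroken rows, apart from an internal start of *SMG1*, and the gaps lie in introns and flanks or at weak promoter regions.

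Peaks in the 8 windows numbered 31, 42 and 33 with CB-6644 and 34, 34 and 34 with DMSO (35.3 ± 5.86 and 34 ± 0). Per 10000 peaks of the library's list these were 5.22, 5.85 and 5.64 against 4.30, 4.78 and 5.19 (2-sided exact permutation test, p = 0.1, the smallest possible). After this division the treated libraries lay above the controls, by a narrow gap between CB-6644 replicate 1 and DMSO replicate 3. Before it, CB-6644 replicates 1 and 3 lay below every DMSO library. Counted by region, 30, 29 and 32 of the 39 had a peak with CB-6644 and 32, 34 and 34 with DMSO. CB-6644 replicate 2 thus listed 42 peaks in 29 regions, with more than 1 peak in some of them. No gene's own peak count differed beyond the spread (2-sided exact permutation tests, p from 0.4 for *TELO2* to 1, with 0.1 the smallest possible). *PRKDC* had 5 peaks in every library, and *MTOR* had 5 in every library except CB-6644 replicate 2, which had 8.

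The strength of shared regions was compared between groups with limma on normal scores, in which each library's percentile is converted to the value of a standard normal distribution at that rank. Over all 42089 shared regions, 3.74% were lower and 3.48% higher with CB-6644 at an adjusted p under 0.05. Of the 27 regions at the PIKK and TTT genes, 1 was lower and 0 were higher at that threshold. An unadjusted limma p under 0.05 was found at 3 of the 27, against 8984 of the 42089 shared regions. The median difference of the 27 was −0.04, against 0.007 over all shared regions, and 11 of the 27 differences were above 0. All CB-6644 percentiles lay below all DMSO ones at 2 of the 27 (13.4% of all shared regions) and above them at 2 (13.3%). The counts at the adjusted p are near the genome-wide shares, while those at the unadjusted p and of separated groups lie below them.

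**Figure D3:**
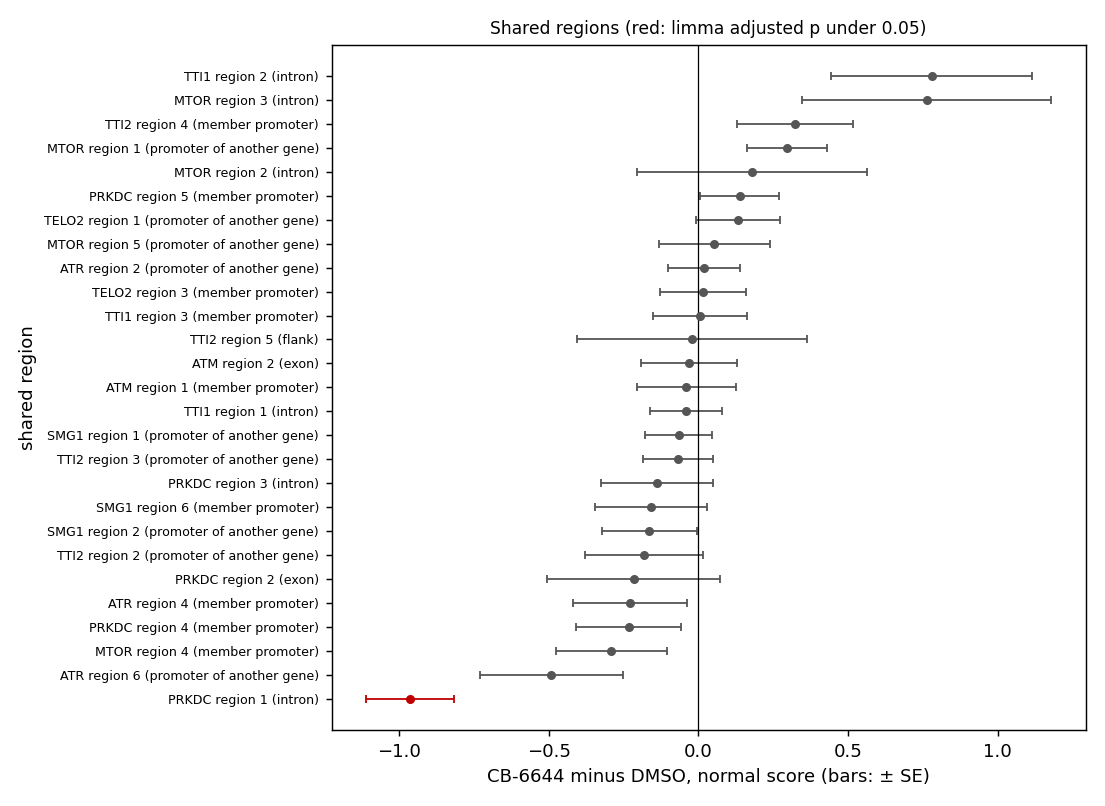
Difference in normal score between CB-6644 and DMSO for each of the 27 shared regions, with ± SE from limma. The *PRKDC* intronic region at −0.96 is the 1 with an adjusted p under 0.05, and the differences of the 9 member promoter regions run from −0.29 to 0.32.

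The region that fell was in *PRKDC*. It spans 251 bp in intron 28 of the 86-exon canonical transcript (chr8:47899922-47900172), about 60.1 kb downstream of the TSS. Its percentiles were 35.6, 51.2 and 38.8 with CB-6644 and 80.3, 76.7 and 75.4 with DMSO, so every treated library lay well below every control (41.9 ± 8.24 and 77.5 ± 2.58, SD, n = 3). The difference in normal score was −0.96 with a standard error of 0.147 (limma, Benjamini-Hochberg adjusted p = 0.00552). It was the 988th largest fall and the 327th smallest p of the 42089 regions. The caller's −log10 p at the summit was 46.11, 44.03 and 56.46 with CB-6644 and 187.9, 193.2 and 158.5 with DMSO. The fold enrichment was 16.9, 21.0 and 17.4 with CB-6644 and 34.59, 24.99 and 21.91 with DMSO (18.4 ± 2.20 and 27.2 ± 6.62), again without overlap. In the 4 libraries with long peaks alone, the difference was −0.95 (limma adjusted p = 3.25e-05). With log2 fold enrichment in place of the rank it was −0.46 and did not pass (limma adjusted p = 0.103). The site kept a peak in all 6 libraries, so it was weaker with CB-6644 but not lost. None of the 11 motifs matched within 100 bp of its summit.

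No other region of *PRKDC* passed the test. A second intronic region about 39.8 kb downstream of the TSS, in intron 21 (chr8:47919891-47920435), had percentiles of 75.6, 47.5 and 71.5 with CB-6644 and 68.1, 68.3 and 74.6 with DMSO, and the groups overlapped. A weak region over exon 27, about 57.6 kb downstream, had 6.2, 2.84 and 12.8 against 7.35, 12.6 and 9.14. For these regions and both promoter regions the differences in normal score ran from −0.23 to 0.14, with limma adjusted p from 0.503 to 0.738.

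**Figure D4:**
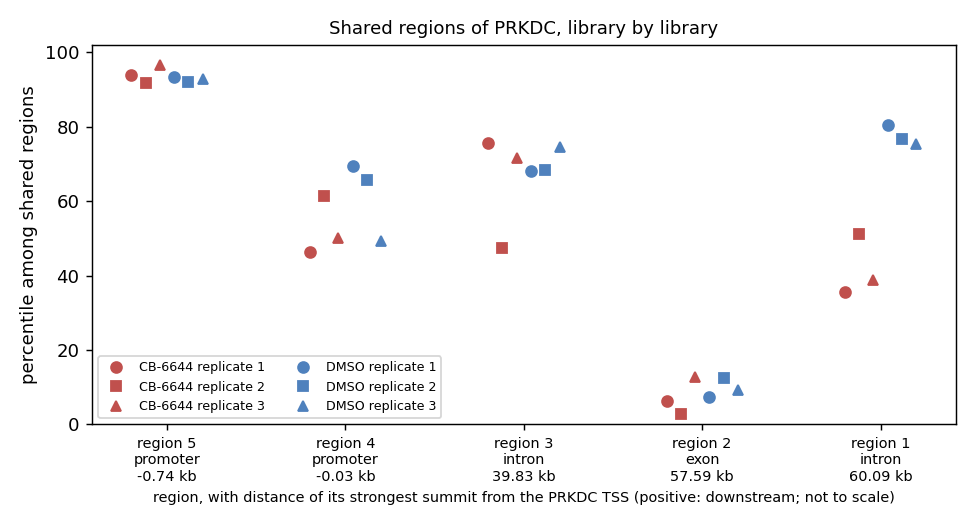
Percentile among shared regions (vertical axis) of the 5 regions of the *PRKDC* window in each library, ordered by the distance of the strongest summit from the TSS in kb. Only the intronic region at 60.1 kb separates the CB-6644 libraries (35.6 to 51.2) from the DMSO libraries (75.4 to 80.3).

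The next falls did not pass the test. A region in the *ATR* window, about 17.7 kb upstream of the *ATR* TSS (chr3:142595981-142596751), had 66.0, 28.1 and 66.2 with CB-6644 and 69.7, 68.9 and 76.4 with DMSO. It lies at a TSS of *PLS1*, the gene of an actin-bundling protein. The groups did not overlap, but the low value of CB-6644 replicate 2 set the size of the difference, which was −0.49 (SE 0.239, limma adjusted p = 0.269), and −0.15 without that library. With the short-peak libraries as a covariate the adjusted p was 0.0292 (limma). The *MTOR* promoter followed, at −0.29 (SE 0.185, limma adjusted p = 0.414), and was at −0.11 without CB-6644 replicate 2 and −0.02 with log2 fold enrichment.

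The largest rises were at weak introns. A region in intron 7 of *TTI1* (chr20:37992864-37993181) had percentiles of 3.66, 19.1 and 7.75 with CB-6644 and 3.59, 0.96 and 1.13 with DMSO. All 6 values were under 20, and CB-6644 replicate 1 exceeded DMSO replicate 1 by a small margin. The difference in normal score was 0.78 (SE 0.336, limma adjusted p = 0.207). When every library was held to its 58563 strongest peaks, this region had a peak in all 3 CB-6644 libraries and no DMSO library, as did 1.41% of all regions under that setting. It was the 1 region of the 34 then left in the 8 windows with that pattern. A second region of the same intron (chr20:37990575-37991074) was strong in all libraries, from 86.8 to 91.9. The bases within 50 bp of the summits of both are shown, on the plus strand of hg38, because they are neighbours in 1 intron with very different ranks.
*TTI1* weak intronic region (chr20:37992921-37993021): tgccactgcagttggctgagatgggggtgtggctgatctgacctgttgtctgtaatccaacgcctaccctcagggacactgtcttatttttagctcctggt
*TTI1* strong intronic region (chr20:37990708-37990808): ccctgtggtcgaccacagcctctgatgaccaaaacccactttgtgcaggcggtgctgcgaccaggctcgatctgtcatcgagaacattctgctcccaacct
Neither held a match to the 11 motifs. GC content within 100 bp of the summit was 49.3% and 57.2%, with a median of 54.7% over shared regions.

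A region in intron 9 of *MTOR* (chr1:11241760-11241977) had 2.32, 8.94 and 8.03 with CB-6644 and 2.22, 0.07 and 3.62 with DMSO, and the groups overlapped. Its difference was 0.76 (SE 0.416, limma adjusted p = 0.332) and dropped to 0.30 without DMSO replicate 2. The *TTI2* promoter, whose summits differed in position between the groups, followed at 0.32 (SE 0.194, limma adjusted p = 0.384). A region at the promoter of *EXOSC10*, an exosome subunit gene in the *MTOR* window (chr1:11099260-11100145), had 75.3, 76.3 and 67.4 with CB-6644 and 57.1, 65.7 and 64.6 with DMSO, without overlap (0.30, SE 0.133, limma adjusted p = 0.227).

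**Figure D5:**
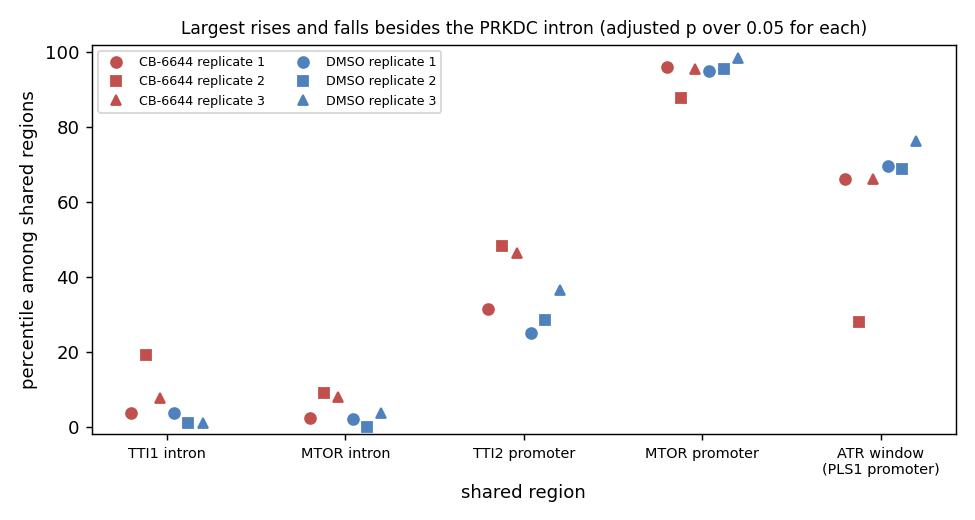
Percentile among shared regions (vertical axis) in each library for the 3 largest rises (*TTI1* intron, *MTOR* intron, *TTI2* promoter) and the *MTOR* promoter and *PLS1* promoter, the largest falls besides *PRKDC*. At the *PLS1* promoter CB-6644 replicate 2 sits at 28.1, far below the other 5 libraries (66.0 to 76.4), and none of these regions passed the test.

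The 12 regions with a peak in 1 to 5 libraries were mostly weak, and 9 of them had more DMSO than CB-6644 calls, 2 had more CB-6644 calls and 1 had equal numbers. Among such regions across the genome, 58.7% had more DMSO calls. Of the 12, 3 were listed in 1 library each, in introns of *ATM*, *ATR* and *SMG1*. In *SMG1*, an internal protein-coding start in intron 1 of the canonical transcript (chr16:18899561-18900065) had a peak in DMSO replicate 2 (percentile 19.3 of its own list) and replicate 3 (27.0), and in no other library. A second region of that intron, chr16:18901693-18901936, was listed in the same libraries at 4.11 and 0.35. Whether this intron lies in the part of *SMG1* copied in the *SMG1P* pseudogenes was not examined. An intronic region of *ATM* about 118 kb downstream of the TSS (chr11:108341077-108341269) was listed at 16.4 in CB-6644 replicate 2, 48.3 in DMSO replicate 1 and 35.9 in DMSO replicate 2. A flanking region of *TELO2* (chr16:1482430-1482602) was listed only in CB-6644 replicates 2 and 3, at 8.38 and 14.2. A region downstream of *ATR* (chr3:142445973-142446233) was missing from CB-6644 replicate 2 alone, and stood at 16.5 and 9.46 in the other treated libraries and 41.9, 30.5 and 35.2 with DMSO. Percentiles of a library's own list depend on its length, and the DMSO lists were longer than those of CB-6644 replicates 1 and 3, so these values are not compared between groups.

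In the 4 libraries with long peaks, 3 of 38 regions of the windows had a peak in both DMSO libraries and in neither CB-6644 library, and 0 had the reverse, against 9.21% and 1.99% of all regions in those libraries. The 3 were the 2 *SMG1* regions just given and a region near *FUT10* at the 3′ side of *TTI2* (chr8:33471802-33472091). The share is near that of all regions.

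The promoters of 21 genes that work with these kinases were also looked up, and all 21 had a peak in all 6 libraries, against 63.8% of protein-coding genes. They were 10 genes of R2TP, HSP90 and casein kinase 2 (*RUVBL1*, *RUVBL2*, *PIH1D1*, *RPAP3*, *HSP90AA1*, *HSP90AB1*, *CSNK2A1*, *CSNK2A2*, *CSNK2B*) with the TTT adaptor *WAC*, the kinase-like relative *TRRAP*, and 10 partner subunits or substrates (*RPTOR*, *RICTOR*, *MLST8*, *ATRIP*, *XRCC5*, *XRCC6*, *SMG8*, *SMG9*, *UPF1*, *NBN*). Their windows held 122 regions, of which 85 were shared and 0 were particular to a group by the rule above, against 4.5% of all regions for DMSO and 0.586% for CB-6644. Of the 85, 2 rose and 2 fell with CB-6644 (limma adjusted p under 0.05), against 3.48% and 3.74% of all shared regions, so these counts are near the genome-wide shares. Their median difference was 0.105, against 0.007 over all shared regions, and no promoter was among the 4. Both falls were in the window of *XRCC5*, which encodes Ku80. One lay inside the gene about 4.4 kb from its TSS (chr2:216113567-216114030), with percentiles of 67.1, 63.3 and 57.1 with CB-6644 and 85.7, 81.7 and 87.7 with DMSO (−0.72, SE 0.127, limma adjusted p = 0.00902). The other lay at −18.6 kb from the *XRCC5* TSS and 8.8 kb from that of *TMEM169* (−1.05, SE 0.255, limma adjusted p = 0.0325). One rise was inside *RUVBL1*, about 9.3 kb from its TSS (0.58, SE 0.145, limma adjusted p = 0.0354). The other was inside *XRCC6*, which encodes Ku70, about 33.2 kb from its TSS and 28.1 kb from that of *SNU13* (0.83, SE 0.173, limma adjusted p = 0.0177). These 4 calls come from the main fit and were not followed under the alternatives. Ku70 and Ku80 form the DNA end-binding partner of DNA-PKcs, and regions in the windows of its genes thus moved in both directions. The promoters of *RUVBL1* and *RUVBL2*, the genes of the inhibitor's targets, had percentiles of 98.2 ± 0.58 and 95.8 ± 1.65 with CB-6644 and 99.0 ± 0.25 and 95.8 ± 0.68 with DMSO.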

How the data were processed

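The data were 6 Omni-ATAC peak lists of MM.1S cells, 3 per group, grouped and numbered as the labels state. Reads were aligned by the authors with Bowtie2 (2.4.2 in the submitters' processing notes, genome hg38), who called peaks in each library separately with MACS3 (3.0). Caller settings are not given in the sources used here. Each deposited fold enrichment is a ratio, computed by the authors' caller, of pile-up to local background at the summit. The −log10 p and −log10 q values are deposited as the authors' caller wrote them. No list is scaled to another, and lists of different peak length or depth differ in all of these values. Read totals are not in the lists, so depth is unknown and no counting interval is given. The authors' test of read counts could not be repeated from peak lists.

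Here, peaks of the autosomes and sex chromosomes were merged by an overlap of at least 1 bp and placed on GENCODE release 44. 0 peaks ran past a chromosome end, and 6 of 6 RefSeq promoter windows matched hg38. In each library the highest −log10 p in each shared region was ranked, turned into normal scores and fitted with limma 3.58.1 (R 4.3.3, with an intensity trend and Benjamini-Hochberg adjustment over all shared regions). The fit was tested on data simulated with independent noise in each region and library. That simulation lacked the correlations between libraries reported below. Peak counts were compared by 2-sided exact permutation tests of 3 against 3 libraries, whose smallest p is 0.1. Python 3.11.15 with numpy 2.4.6, pandas 2.3.3 and scipy 1.17.1 was used.

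The members and gene lists were chosen with earlier results of these data known. Named were all 8 promoters, any region particular to a group, shared regions past the adjusted p, the 3 largest rises and 3 largest falls, and for each member the gene with the most similar promoter percentiles. The *EXOSC10* region, the regions listed in 1 to 5 libraries, the other *PRKDC* and *TTI1* regions and the lineage genes were chosen after their values were seen or without that rule. Alternatives were a −log10 q of at least 5, equal numbers of top peaks, summit windows, each library left out, the 4 long-peak libraries (division at 100 bp), other flanks and promoter definitions, other values and covariates, and a replicate block.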

Additional observations from a re-analysis of the deposited data

How the results depend on the processing

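All 8 promoters kept a peak in every library used under all 13 alternatives. The fall of the *PRKDC* intronic region kept its direction under 14 alternatives, although the replicate block and the fragment-length covariate cannot alter its size. It kept its side of the threshold under 13. The exception was quantile-normalised log2 fold enrichment, at −0.46 (limma adjusted p = 0.103), and the cause was not tested. Without single libraries the difference ran from −1.01 to −0.87, with limma adjusted p from 0.000287 to 0.0447. The count of shared regions at these genes past the adjusted p was 0 with log2 fold enrichment and 2 with fragment-length set as a covariate. Over the genome, 3038 shared regions passed, against 7919 in the 4 long-peak libraries, 8142 with the covariate and 311 with log2 fold enrichment, and 502 (without DMSO replicate 2) to 4841 (without CB-6644 replicate 2) when 1 library was left out.

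The difference in peaks at the 8 genes, 1.33 more with CB-6644, reversed to −2 in the 4 long-peak libraries, −2 with no flank and −3 with a 50 kb flank, and ran from −2 (without CB-6644 replicate 2) to 3.5 when 1 library was left out. Per 10000 listed peaks, the difference of 0.812 stayed above 0 under 11 alternatives, and was lowest at 0.0715 with no flank. Among these alternatives, the replicate block cannot alter the difference. In single windows, the *ATM* difference ran from −1 to 0.167 with 1 library left out, and *TTI2* turned to −0.333 with a 50 kb flank. Regions particular to DMSO numbered 3 in the 4 long-peak libraries, 1 with a 50 kb flank (chr20:38061189-38061363), and 0 to 3 when 1 library was left out. Those particular to CB-6644 numbered 1 with equal numbers of top peaks and 0 to 1 when 1 library was left out, the 1 being the *TELO2* flanking region.

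Whether same-numbered libraries were paired is unknown. Their deviations correlated at −0.384, −0.147 and 0.253, while those of the short-peak libraries, CB-6644 replicate 2 and DMSO replicate 1, correlated at 0.483. The correlations cannot separate a pairing from the difference in peak length, so they do not decide it. With a replicate block 1718 shared regions passed and the *PRKDC* region remained past the threshold (limma adjusted p = 0.0185). The paired difference in peaks per 10000 equals the unpaired 0.812 by arithmetic and is no further evidence.

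Read totals, replicate origin and caller settings are unknown, percentiles are positions and not amounts, and MM.1S is a single line.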
